A study of Mus musculus with 65 samples.

Results

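The cytosolic ribosomal protein genes were followed across 65 bulk RNA libraries of mouse dendritic cells and macrophages. They were taken by symbol, as every gene named Rpl or Rps followed by a number, with Rplp0, Rplp1, Rplp2 and Rpsa, and without entries marked as pseudogenes by their symbol or the S6 kinases. The rule gave 85 of the 23755 genes in the count table. Of these, 77 are core ribosomal proteins (31 of the small and 46 of the large subunit) and 8 carry the ending of a ribosomal-protein-like gene (Rpl3l, Rpl7l1, Rpl10l, Rpl22l1, Rpl32l, Rpl39l, Rps27l and Rps4l).

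Polyadenylated RNA was sequenced in 3 experiments. The first held untreated dendritic cells grown from bone marrow of C57BL/6 mice, with 3 libraries each of Suv39h1KO IfnarKO double mutant, Suv39h1KO, IfnarKO and wild-type (WT) cells. Suv39h1 encodes a histone H3 lysine 9 methyltransferase, and Ifnar is the receptor of type I interferon. The second was a time course of 0, 2 and 4 h of lipopolysaccharide (LPS, 100 ng/mL), a bacterial ligand of Toll-like receptor 4, in C57BL/6 dendritic cells. It held 3 libraries at each time of cells labelled MyD88KO and of cells labelled TrifKO, named for the adaptors of that receptor, and 6, 5 and 6 libraries of WT cells at 0, 2 and 4 h. The third held RAW264.7 cells, a macrophage-like line from BALB/c mice, with the guide RNAs called gRNA_1, gRNA_2 and gRNA_Ctrl, 3 libraries each at 2 h and at 0 h of LPS. The genes the guides target and the LPS dose of that line are not stated in the labels, and the titles of the RAW264.7 libraries call the cells DC.

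Each library held 36879570 to 95292653 gene counts (median 54709838), of which ribosomal protein genes took 3.36 to 7.85% (median 5.16%). Libraries of a group are separate samples by their cohort numbers, but the WT time course has up to 2 libraries of the same cohort number at a time, and whether these share cells is not stated. P-values therefore measure the spread between libraries, which may be partly technical, and for WT cells may be too small. Suv39h1 had 0.111 to 0.37 CPM (counts scaled to an equal library total) in the 6 Suv39h1KO libraries and 36.1 to 66.7 CPM in the 6 others. The other targeted genes kept part of their counts. Ifnar1 had 122 to 147 CPM in Suv39h1KO IfnarKO and 134 to 156 CPM in IfnarKO libraries, against 191 to 215 CPM in Suv39h1KO and 171 to 199 CPM in WT libraries. Myd88 had 56.0 to 60.5 CPM at 0 h, 99.5 to 119 CPM at 2 h and 83.2 to 92.2 CPM at 4 h in MyD88KO libraries, against 86.9 to 93.2, 258 to 278 and 292 to 376 CPM in WT libraries. Whether these counts come from outside the deleted parts is not given in the labels. Summed markers of dendritic cells and macrophages were high in all dendritic cell libraries (21707 to 36013 CPM) and lower in RAW264.7 (5081 to 8172 CPM), and the granulocyte markers reached 553 to 2500 CPM in dendritic cell libraries. In bulk RNA, fewer cells of a type and less RNA per cell cannot be told apart.

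The libraries labelled TrifKO were not alike in Ticam1 and Xist counts. Ticam1, which encodes TRIF, had 35.1 to 48.5 CPM in the 6 libraries of replicates 1 and 2, within or above the WT range of 21.6 to 44.5 CPM. In replicate 3 it had 37.1 CPM at 0 h, 2.98 CPM at 2 h and 2.46 CPM at 4 h, so only 2 of the 9 libraries were low. How Ticam1 was altered in these cells is not given in the labels. Whether the other 7 lack TRIF can therefore not be read from these counts. Xist, which is transcribed from the inactive X chromosome of female cells, had 1184 CPM at 0 h, 0.0207 CPM at 2 h and 0 CPM at 4 h in replicate 3. It also differed between times in replicate 1, with 0, 0 and 1232 CPM, and in replicate 2, with 1289, 1162 and 0.0370 CPM. Results of this genotype are given as those of the libraries labelled TrifKO, with and without replicate 3 at 0 h.

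Each cytosolic ribosome joins a small subunit, which decodes the messenger RNA, to a large subunit, which forms the peptide bonds. Its proteins are needed in matched amounts, and most of their messenger RNAs begin with a 5′ terminal oligopyrimidine (TOP) tract, a C followed by a run of pyrimidines, through which mTOR signalling controls their translation. A few members have paralogs that can take their place, and some, such as Rpl5 and Rpl11, which bind Mdm2, also act outside the ribosome.

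Sequence around the annotated start was at hand for 64 of the 85 genes, and the 5 below are those whose levels the later results turn on, with Rps27 shown beside its paralog Rps27l. A run of 8 or more pyrimidines that began with C lay within 30 bases of the start in 35 of the 64 (54.7%), against 20.6% of 27025 genes. CCGGAAGT, searched on both strands from the upstream end of the RefSeq promoter window to 30 bases after the start, was found in 18.8% of the members and 4.12% of all genes. CTTTCC, searched on the gene's strand within 30 bases of the start, where it can overlap a pyrimidine run, was found in 18.8% and 3.4%. The lines below run 5′ to 3′ from 80 bases before to 30 bases after the RefSeq start on build GRCm38.p6, and capitals mark the pyrimidine runs.
Rps27l (chr9:66946006-66946115, plus strand): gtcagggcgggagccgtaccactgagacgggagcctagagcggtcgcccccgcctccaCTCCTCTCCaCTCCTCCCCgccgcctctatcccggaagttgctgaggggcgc
Rps27 (chr3:90213619-90213728, minus strand): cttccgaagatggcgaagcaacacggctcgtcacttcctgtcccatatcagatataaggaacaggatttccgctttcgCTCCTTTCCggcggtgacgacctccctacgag
Rplp2 (chr7:141447571-141447680, plus strand): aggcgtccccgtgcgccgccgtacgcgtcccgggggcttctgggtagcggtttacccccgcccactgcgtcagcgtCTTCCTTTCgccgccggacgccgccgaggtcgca
Rpl7l1 (chr17:46782627-46782736, minus strand): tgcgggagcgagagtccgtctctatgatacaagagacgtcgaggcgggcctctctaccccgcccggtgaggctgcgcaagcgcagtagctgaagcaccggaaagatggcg
Rpl24 (chr16:55966195-55966304, plus strand): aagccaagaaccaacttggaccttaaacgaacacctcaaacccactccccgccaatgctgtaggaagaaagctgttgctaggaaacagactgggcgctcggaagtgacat
Both paralogs Rps27l and Rps27 have such a run in the window shown, and Rpl7l1 and Rpl24 have none. Rps27l has a further RefSeq start, whose window (chr9:66946333-66946442, plus strand) holds no such run.

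At rest the like-named relatives lay at or below the low end of the core genes. In WT cells of the time course at 0 h, the core genes had a median of 948 CPM per kilobase of transcript, with quartiles of 684 and 1256 and a range of 164 to 2917. Rps29 of the small subunit ranked first at 2917 CPM per kilobase, followed by Rplp1, a protein of the P stalk that recruits elongation factors, at 1892, and by Rpl10 at 1832. Of the like-named relatives, Rps27l had 377 CPM per kilobase, Rpl22l1 194 and Rpl7l1 81.1, so Rps27l and Rpl22l1 were above the lowest core gene, Rps20, and Rpl7l1 below it. The other relatives were near 0, with 6.45 for Rps4l, 2.03 for Rpl3l (a paralog known from muscle), 1.59 for Rpl39l and 1.34 for Rpl32l, and no count of Rpl10l, known from testis, was found in any library. Rpl32l and Rps4l are annotated as pseudogenes.

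Levels of single core genes carry a caveat of counting. For 65 of the 77, a transcript of another annotated gene was at least 95% identical over at least 50% of the member's length, and for 46 the identity reached 99%. How the counting treated reads shared with such copies is not given in the sources used here. Rps27l and Rps4l had no such copy, and Rpl7l1 had 1 at 95.8% identity.

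The core genes rose and fell together from library to library. Small-subunit genes held 42.5 to 45.5% of all core counts in every one of the 65 libraries. In WT cells at 0 h, library 5 of cohort 2 had the highest CPM of its group for 76 of the 77 core genes, and the members took 7.85% of its counts, against 4.84 to 6.24% in the 5 other libraries. Among untreated WT cells of the knockout experiment, cohort 1 was highest for all 77 core genes (members 5.75% of counts) and cohort 2 lowest for all 77 (3.67%). The like counts over all genes were not made, so these counts do not set the core genes apart from other genes. Summed cell cycle genes were also highest in WT library 5, at 2284 CPM against 1454 to 2233 CPM in the other 0 h libraries. The part of these library differences in the results was not tested, apart from leaving out each library in turn.

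Few ribosomal protein genes of WT dendritic cells passed the test after LPS, and their direction as a group depended on how libraries were scaled. The members took 5.89 ± 1.13% of all gene counts at 0 h (SD, n = 6), 5.03 ± 1.26% at 2 h (n = 5) and 4.28 ± 0.867% at 4 h (n = 6). The 6 libraries at 4 h ran from 3.36 to 5.35% and those at 0 h from 4.84 to 7.85%, so the groups overlapped. With library sizes scaled by edgeR's TMM factors, which hold most genes level, the order was the reverse, with 4.95 ± 1.01, 5.47 ± 1.17 and 5.59 ± 0.996%. By library totals all 77 core genes had a lower mean at 4 h than at 0 h, and by TMM 76 of the 77 had a higher one. The median log2 fold change of the 84 members tested at 4 h was 0.16 by TMM, beside -0.07 over all 14475 genes, and -0.47 by library totals, beside -0.71 over all genes. On both scalings the members' median lay above that of all genes. At 2 h the TMM-scaled median was 0.14, beside -0.05 over all genes, and 0.00 without 2 h library 3.

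**Figure D1:**
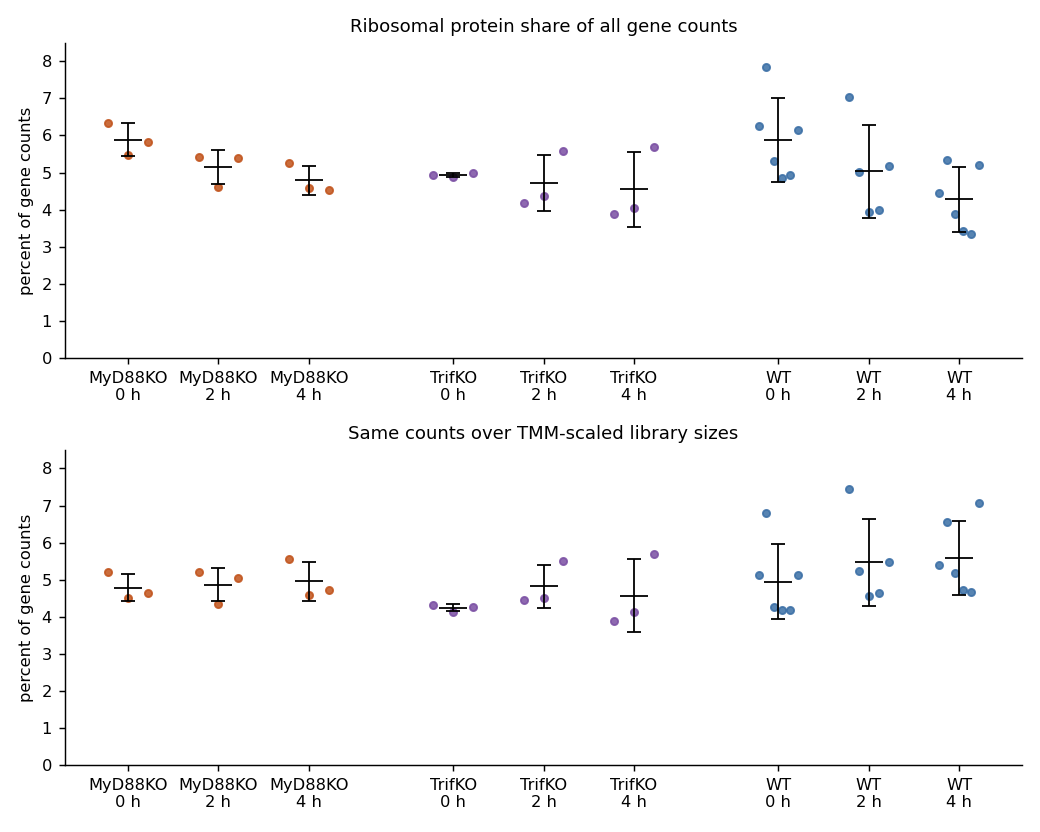
Percent of gene counts on the 85 ribosomal protein genes in each library of the LPS time course, by genotype and hour, over library totals (top) and over TMM-scaled library sizes (bottom). Points are libraries, and the bars are mean and SD. WT means run 5.89, 5.03 and 4.28% in the top panel and 4.95, 5.47 and 5.59% in the bottom panel.

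By edgeR's quasi-likelihood test on TMM-scaled counts with Benjamini-Hochberg adjustment over all genes, 2 of 84 members were called at 2 h of LPS in WT cells, both higher. Of all genes tested, 45.9% were called at 2 h and 21.3% were higher. At 4 h, 6 of 84 members were called, all higher, against 65.1% of all genes called and 30% higher. Between 2 h and 4 h, 1 member was higher and 1 lower at 4 h, against 35.8% of all genes called. The calls were 2.38%, 7.14% and 2.38% of the members tested, below the share of all genes in each comparison, a gap that was not itself tested.

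Rps27l, a paralog of Rps27 known as a p53-induced gene, had the largest change of the members called at 2 h and at 4 h. At 0 h it had 175 to 198 CPM in the 6 WT libraries (median 191). At 2 h the 5 libraries had 219, 214, 223, 199 and 246 CPM. At 4 h the 6 libraries ran from 217 to 339 CPM (median 259). Every library at 2 h and at 4 h was above every library at 0 h. The log2 fold change was 0.61 ± 0.13 (SE) at 2 h (edgeR adjusted p = 0.000204) and 1.17 ± 0.12 at 4 h (adjusted p = 1.4e-09). Between the later times it was 0.56 ± 0.13 (adjusted p = 0.000854). The rise at 4 h was called after leaving out each of the 12 libraries in turn, and by library totals it was 0.52 (adjusted p = 0.000173), while at 2 h library totals gave 0.23 (adjusted p = 0.104).

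Within the ribosomal protein counts alone, which need no library scaling, Rps27l gained on the core genes. It had 43.6 to 88.4 counts per 10000 core counts at 4 h and 24.8 to 37.5 at 0 h, with no overlap, while the 31.3 to 55.0 at 2 h overlapped with 0 h. For 4 h an exact two-sided permutation test over libraries gave p = 0.00216, the smallest this design allows, and 0.0649 after Benjamini-Hochberg adjustment over 45 such comparisons. Relative to Rps27, Rps27l stood at 30.8 ± 3.8% of its paralog's counts at 0 h, 43.1 ± 9.2% at 2 h and 56.3 ± 13% at 4 h (SD, n = 6, 5 and 6).

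Rpl7l1, a paralog of Rpl7, was higher at 2 h than at 0 h and lower at 4 h than at 2 h. Its TMM-scaled log2 fold change was 0.47 ± 0.11 at 2 h (edgeR adjusted p = 0.000478) and 0.14 ± 0.10 at 4 h (adjusted p = 0.213), and the 4 h level was lower than the 2 h level by -0.33 ± 0.11 (adjusted p = 0.0152). Unscaled levels were 92.7 to 127 CPM at 0 h (median 104), 152, 89.5, 115, 86.6 and 127 CPM at 2 h, and 61.3 to 97.1 CPM at 4 h (median 74.5). On that scale the 2 h and 0 h libraries overlapped, and the library-total fold changes were 0.10 at 2 h (adjusted p = 0.481) and -0.49 at 4 h (adjusted p = 0.000404). Per 10000 core counts, Rpl7l1 had 21.8 to 25.4 at 2 h and 16.3 to 21.5 at 0 h, without overlap (exact permutation p = 0.00433, 0.0649 after adjustment over the 45 comparisons).

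**Figure D2:**
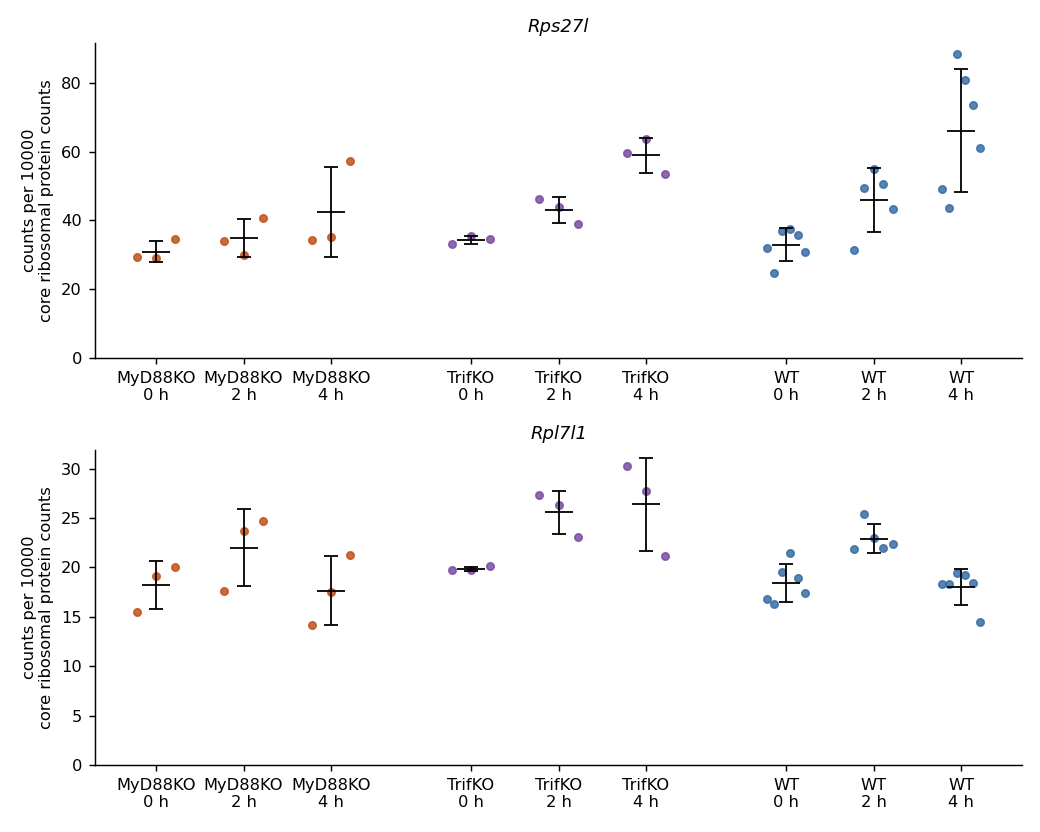
Counts of Rps27l (top) and Rpl7l1 (bottom) per 10000 counts on the 77 core ribosomal protein genes, by genotype and hours of LPS. Points are libraries, and the bars are mean and SD. In WT cells Rps27l stood at 43.6 to 88.4 at 4 h and 24.8 to 37.5 at 0 h, and Rpl7l1 at 21.8 to 25.4 at 2 h and 16.3 to 21.5 at 0 h.

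The 5 core genes called at 4 h in WT cells were higher only relative to other genes. On TMM-scaled counts the log2 fold change was 0.38 ± 0.16 for Rps20 of the small subunit (edgeR adjusted p = 0.0431). In the large subunit it was 0.40 ± 0.12 for Rpl24 (adjusted p = 0.00347), 0.31 ± 0.11 for Rpl19 (adjusted p = 0.0184) and 0.25 ± 0.10 for Rpl27 (adjusted p = 0.0392). For Rplp2 of the P stalk it was 0.33 ± 0.11 (adjusted p = 0.0123). By library totals all 5 reversed, to -0.26 for Rps20, -0.24 for Rpl24, -0.33 for Rpl19, -0.39 for Rpl27 and -0.30 for Rplp2. Rpl24 had 336 to 475 CPM at 4 h and 397 to 636 CPM at 0 h, and Rplp2 had 330 to 580 CPM at 4 h and 482 to 705 CPM at 0 h, so the libraries overlapped. Without 0 h library 5, 32 members were called at 4 h and 7 at 2 h.

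Of a short list of core members with known roles outside the ribosome, none was called at 4 h in WT cells. The list is not complete and does not hold Rps27l or the 5 core genes called. The values given here lay on both sides of the members' median of 0.16 (quartiles 0.12 and 0.24), some outside the quartiles. The log2 fold change was 0.10 for Rpl5 and 0.09 for Rpl11, the proteins of the 5S ribonucleoprotein that bind Mdm2. It was 0.05 for Rpl13a, which in human cells silences inflammatory messenger RNAs, 0.13 for Rps3 and 0.15 for Rps6, the substrate of the S6 kinases. It was 0.25 for Rps19, the gene most often mutated in Diamond-Blackfan anaemia in humans, and 0.19 for Rpl26. Of the other P stalk genes Rplp0 had 0.24 and Rplp1 0.16, and the small-subunit gene Rpsa had 0.12.

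Genes of the machinery that builds ribosomes changed in both directions. Of 108 ribosome biogenesis factors, 35 rose and 16 fell at 2 h in WT cells, beside 21.3% of all genes higher and 45.9% called. At 4 h 20 rose and 52 fell (median log2 fold change -0.18), beside 30% of all genes higher and 65.1% called. These counts are on TMM-scaled sizes. By library totals the factors summed to 4981 to 6062 CPM at 0 h, 4202 to 5695 CPM at 2 h and 3095 to 4435 CPM at 4 h, so at 2 h the sum was not higher. Sbds, which releases the factor that keeps the subunits apart, rose by 2.42 ± 0.11 at 4 h (edgeR adjusted p = 4.16e-17), and Rcl1 by 1.91 ± 0.18 (adjusted p = 1.59e-10). Rrp1b fell by 1.80 ± 0.18 (adjusted p = 8.02e-10) and Wdr12 by 1.60 ± 0.14 (adjusted p = 2.26e-11), both factors of large-subunit assembly. Of 38 genes of RNA polymerase I and III, which make ribosomal and other small RNAs, 7 rose and 20 fell at 4 h. Of 39 translation initiation genes 15 rose and 7 fell, led by Denr (1.97 ± 0.09, adjusted p = 1.6e-16) and Eif1a (1.30 ± 0.07, adjusted p = 1.92e-15).

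Other TOP genes did not move as 1 group either. Of 30 genes known for such messenger RNAs other than the members, 6 rose and 5 fell at 4 h, with Pabpc1 (poly(A)-binding protein) at 0.58 ± 0.07 (edgeR adjusted p = 2.06e-08) and Eif4b at -0.66 ± 0.13 (adjusted p = 4.69e-05). Larp1, which binds TOP messenger RNAs under mTOR control, rose by 2.09 ± 0.12 (adjusted p = 6.71e-15). Of 20 p53 target genes, a list that does not hold Rps27l, 6 rose and 6 fell at 4 h, close to the share of all genes (30% higher, 65.1% called), with Cdkn1a at 2.59 ± 0.18 (adjusted p = 5.6e-13) and Sesn1 at -2.14 ± 0.14 (adjusted p = 1.05e-13). Cell cycle genes moved beside these groups, with 17 of 18 lower and 1 higher at 4 h (median -1.42), and their part in the members' values was not tested.

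In MyD88KO cells the members lay near all other genes on TMM-scaled counts and were lower after LPS by library totals. At 2 h none of 84 was called by edgeR, with 1 under an unadjusted p of 0.05 and 0 called by DESeq2, against 16.1% of all genes called. At 4 h 1 was called, Rps27l, against 34.1% of all genes called and 17.1% higher. The members' median log2 fold change was 0.02 at 2 h and 0.03 at 4 h, beside -0.02 and -0.05 over all genes. Their share of counts was 5.88 ± 0.441% at 0 h, 5.15 ± 0.452% at 2 h and 4.79 ± 0.399% at 4 h (SD, n = 3 each), with 4.52 to 5.25% at 4 h and 5.47 to 6.35% at 0 h, without overlap. By library totals all 77 core genes had a lower mean at both times than at 0 h, and for 53 of them every 4 h library was below every 0 h library. On TMM-scaled sizes 52 of the 77 had a higher mean at 4 h, and for 1 of them the groups did not overlap. The like counts over all genes were not made, so these counts do not set the members apart from other genes.

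Rps27l in MyD88KO cells had 158, 200 and 184 CPM at 0 h, 183, 218 and 137 CPM at 2 h, then 179, 161 and 257 CPM at 4 h. The 4 h and 0 h libraries overlapped, and 1 library at 4 h stood above the rest. The log2 fold change at 4 h was 0.49 ± 0.17 (edgeR adjusted p = 0.0266), and it was called in 3 of the 6 fits that left out 1 library. The MyD88KO response at 4 h was smaller than the WT response by -0.68 ± 0.21 (adjusted p = 0.0442), the 1 member called of 84, and lower, against 6.86% of all genes called and 4.39% lower. That difference was called in 4 of the 18 fits that left out 1 library, and by library totals it was -0.38 (adjusted p = 0.189). At 2 h no response of a member differed between the genotypes by edgeR, with 0 under an unadjusted p of 0.05 and 0 by DESeq2, against 0.442% of all genes called, and the members' median difference was -0.12 at 2 h and -0.13 at 4 h. Without WT 2 h library 3 the first was 0.02, and without WT 4 h library 41 the second was -0.02.

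The libraries labelled TrifKO showed the rises of both paralogs. Of 84 members 2 were called at 2 h, both higher, against 20.7% of all genes called and 11.3% higher. At 4 h 2 were called, both higher, against 25.9% called and 14.4% higher. The members' median log2 fold change was 0.17 at 2 h and 0.10 at 4 h, and without replicate 3 of the later time it was 0.06 and -0.08. Rps27l had 162, 172 and 172 CPM at 0 h, 192, 189 and 215 CPM at 2 h, then 229, 255 and 302 CPM at 4 h, with no overlap of either later time with 0 h. Its log2 fold change was 0.49 ± 0.17 at 2 h (edgeR adjusted p = 0.0379), which no fit that left out 1 library called, and 0.86 ± 0.17 at 4 h (adjusted p = 0.000426), which all 6 such fits called.

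Rpl7l1 in these libraries had 96.7, 96.0 and 99.5 CPM at 0 h, 114, 114 and 128 CPM at 2 h, then 116, 111 and 120 CPM at 4 h. All libraries at 2 h and 4 h were above all at 0 h. The log2 fold change was 0.54 ± 0.14 at 2 h (edgeR adjusted p = 0.00685) and 0.48 ± 0.14 at 4 h (adjusted p = 0.0140). At 4 h this response was larger than the WT response by 0.33 ± 0.17, which was not called (adjusted p = 0.200), but it was called against the 9 WT libraries of the high library numbers, those numbered next to the TrifKO libraries (0.37, adjusted p = 0.0317), and by library totals (0.74, adjusted p = 0.00532). Against the same 9 WT libraries the Rps27l response was smaller (-0.45, adjusted p = 0.0235), and against all WT libraries it was not called (-0.31, adjusted p = 0.340). Without replicate 3 at 0 h, the fold changes of Rpl7l1 were 0.55 at 2 h (adjusted p = 0.0224) and 0.49 at 4 h (adjusted p = 0.0370), and those of Rps27l were 0.50 (adjusted p = 0.0835) and 0.87 (adjusted p = 0.00267).

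No member's response differed by edgeR between libraries labelled TrifKO and WT at 2 h or 4 h, with 0 under an unadjusted p of 0.05 and 0 by DESeq2 at either time, against 1.38% and 18.3% of all genes called. Of the ribosome biogenesis factors, 43 of 108 had a higher response at 4 h in the libraries labelled TrifKO and 2 a lower one (median difference 0.39), with Rrp1b at 2.00 ± 0.31 (edgeR adjusted p = 2.11e-05). The 2 libraries low in Ticam1 also differed from the other 4 LPS-treated ones in the members. At 4 h the members took 5.70% of counts in replicate 3, against 3.88% and 4.05% in replicates 1 and 2. All 77 core genes were highest there, a count that was not made over all genes. At 2 h the members took 5.57%, against 4.19% and 4.36%. Summed mast cell and basophil markers were 197 CPM in replicate 3 at 4 h and 195 CPM at 2 h, against 58.0 to 75.3 CPM in the other 7 libraries of this label. Summed cell cycle genes were also higher there, at 1698 CPM against 1068 and 1097 CPM at 2 h, and 1328 CPM against 1050 and 970 CPM at 4 h. The part of either in the members' values was not tested.

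Before LPS no member was called between MyD88KO cells, or the libraries labelled TrifKO, and WT cells. In MyD88KO cells at 0 h edgeR called 0 of 84, with 0 under an unadjusted p of 0.05 and 0 by DESeq2, against 0.0622% of all genes. In the libraries labelled TrifKO it called 0, with 1 under an unadjusted p of 0.05 and 0 by DESeq2, against 0% of all genes. There 82 of the 84 members had a log2 fold change below 0 (median -0.22, beside -0.02 over all genes), and the value was also -0.22 without replicate 3. Without WT library 5 it was -0.10.

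Without Suv39h1 most members had small positive fold changes, and none passed the test in the main fit, which has no cohort term. In Suv39h1KO against WT cells, edgeR called 0 of 84 members, with 1 under an unadjusted p of 0.05 and 1 by DESeq2, against 0.209% of all genes called. In Suv39h1KO IfnarKO against IfnarKO cells it called 0, with 9 under an unadjusted p of 0.05 and 2 by DESeq2, against 0.222%. Same-cohort libraries of this experiment deviated together (mean correlation 0.451). With the cohort number as a replicate block edgeR called 1 and 3 members, named below. In these comparisons 80 and 82 of the 84 members had a value above 0, with medians of 0.18 and 0.29 beside 0.01 and 0.01 over all genes. The first median rests on single libraries, running from 0.00 (without WT cohort 2) to 0.34 (without WT cohort 1) in Suv39h1KO against WT. In the IfnarKO background the median ran from 0.18 (without IfnarKO cohort 3) to 0.40 (without IfnarKO cohort 1), so its size varied while it stayed above 0. The members took 5.64 ± 0.562% of counts in Suv39h1KO IfnarKO cells, 5.34 ± 0.680% in Suv39h1KO, 4.64 ± 0.914% in IfnarKO and 4.75 ± 1.04% in WT cells (SD, n = 3 each), so the groups overlapped. Within cohorts 1, 2 and 3 the double mutant was above IfnarKO each time, with 6.19, 5.66 and 5.07% against 5.53, 4.69 and 3.70%. Suv39h1KO was above WT in cohorts 1 and 2 and below it in cohort 3, with 6.06, 5.24 and 4.71% against 5.75, 3.67 and 4.83%. In IfnarKO against WT cells edgeR called 0, with 0 under an unadjusted p of 0.05 and 0 by DESeq2, against 0.125% of all genes, and the members' median was -0.02.

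Among the few members with a negative value in both comparisons was Rps4l (chr6:148354656-148355598, plus strand, mm10), an intronless gene annotated as a transcribed processed pseudogene. It had 0.703, 0.865 and 1.50 CPM in Suv39h1KO IfnarKO cells, 1.22, 1.29 and 2.62 CPM in Suv39h1KO, 2.90, 4.29 and 3.54 CPM in IfnarKO, and 4.28, 3.45 and 5.41 CPM in WT cells. The 6 libraries without Suv39h1 (38 to 166 counts) were all below the 6 with it (174 to 362 counts). The log2 fold change was -1.36 ± 0.36 in Suv39h1KO against WT (edgeR adjusted p = 0.364) and -1.81 ± 0.37 in Suv39h1KO IfnarKO against IfnarKO (adjusted p = 0.102), neither of which was called. With the cohort number as a replicate block these were -1.41 (adjusted p = 0.0212) and -1.88 (adjusted p = 0.00523), and by DESeq2 the adjusted p was 0.0231 and 0.000202. In IfnarKO against WT cells the value was -0.27 ± 0.35 (adjusted p = 1). Rps4l had 2.46 to 13.6 CPM in the 35 time course libraries and no count in any of the 18 RAW264.7 libraries.

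The block called 2 more members in the IfnarKO background, both higher, Rpl22l1 at 0.67 (edgeR adjusted p = 0.00924) and Rpl31 at 0.47 (adjusted p = 0.0333). Rpl22l1, a paralog of Rpl22, had 123, 82.0 and 76.8 CPM in Suv39h1KO IfnarKO cells of cohorts 1, 2 and 3, 120, 82.4 and 73.6 CPM in Suv39h1KO, 88.4, 43.4 and 48.9 CPM in IfnarKO, and 86.6, 53.4 and 64.7 CPM in WT cells. Each cohort's double mutant was above its IfnarKO library, while the groups as a whole overlapped.

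**Figure D3:**
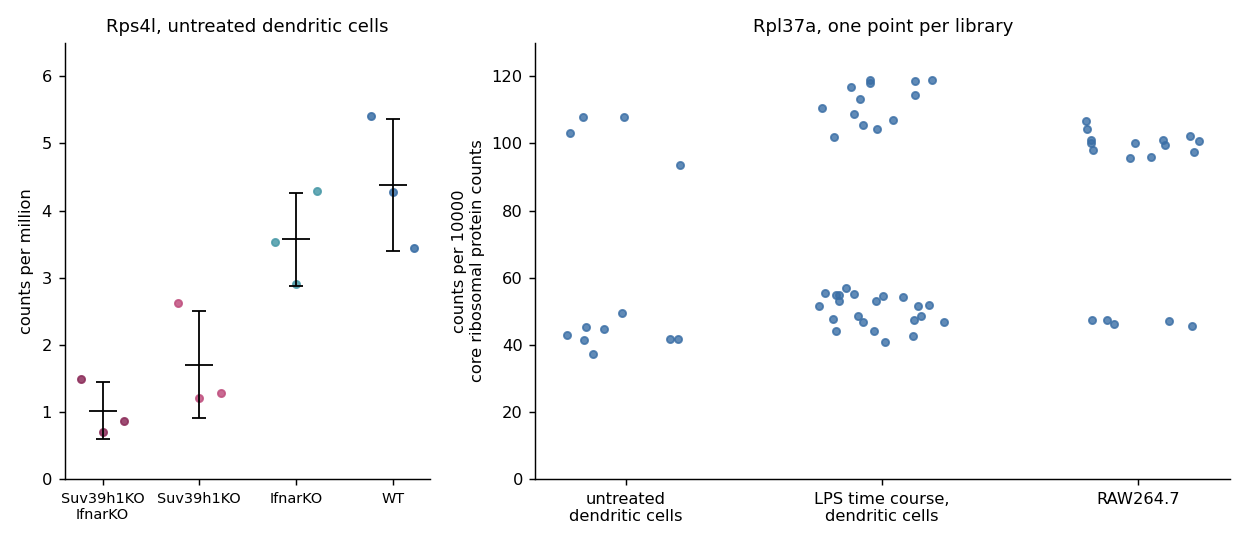
Left: Rps4l in CPM in untreated dendritic cells by genotype, with points for libraries and bars for mean and SD. All 6 libraries without Suv39h1 lie below the 6 with it. Right: Rpl37a counts per 10000 core ribosomal protein counts in each of the 65 libraries, by experiment, with 35 libraries at 37.4 to 56.9 and 30 at 93.6 to 119.

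In RAW264.7 cells with gRNA_Ctrl, 2 h of LPS raised nearly all ribosomal protein genes relative to other genes, by a small and even step. EdgeR called 77 of the 82 members tested, all higher, against 51.6% of all 13078 genes called and 26.3% higher. The median log2 fold change was 0.23, beside -0.00 over all genes. The members took 5.55 ± 0.252% of counts at 2 h and 5.38 ± 0.146% at 0 h (SD, n = 3 each), and 5.89% and 5.05% on TMM-scaled sizes. By library totals the median was 0.05, beside -0.18 over all genes, and 9 members were called. With each library left out in turn, 71 to 77 members were called. Summed cell cycle genes moved the other way, with 3122 to 3403 CPM at 2 h and 4352 to 4640 CPM at 0 h, and their part was not tested.

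The largest rise was that of Rpl7l1, which had 236, 228 and 218 CPM at 2 h, against 201, 192 and 187 CPM at 0 h, without overlap (log2 fold change 0.41 ± 0.05, edgeR adjusted p = 1.09e-06). Next were Rps20 (0.35), Rpl22l1 (0.34), Rpl24 (0.33), Rps27 (0.32) and Rps13 (0.30). Rps20 had 544, 588 and 665 CPM at 2 h, against 531, 512 and 557 CPM at 0 h, and Rpl24 had 459, 467 and 491 CPM at 2 h, against 435, 419 and 425 CPM at 0 h. Only Rpl24 of these 2 kept its groups apart on that scale. The 5 members not called were Rps27l (0.10, adjusted p = 0.0508), Rps15 (0.16, adjusted p = 0.0695), Rpl37a, Rpl3l and Rpl32l. Rps27l, which had the largest change called in WT dendritic cells at both times, in RAW264.7 cells had 133, 122 and 134 CPM at 2 h, against 136, 142 and 133 CPM at 0 h, a difference between cell types that was not tested.

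**Figure D4:**
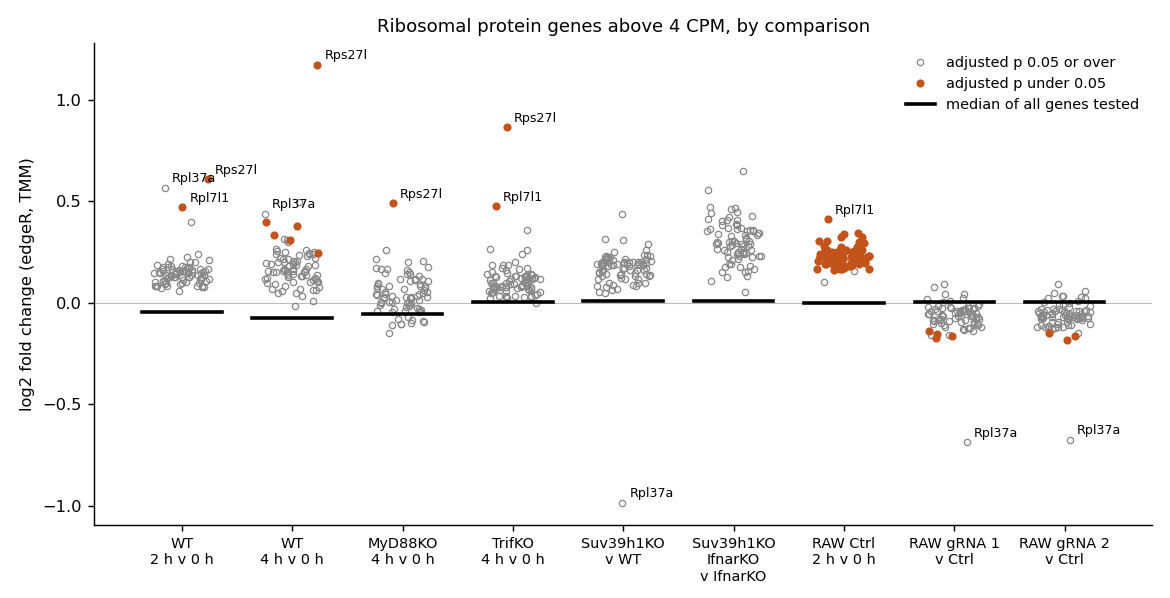
TMM-scaled log2 fold changes (edgeR) of ribosomal protein genes with a mean above 4 CPM, 1 column per comparison. Filled points passed the adjusted p threshold of 0.05, open points did not, and the black line is the median of all genes tested. In RAW264.7 cells at 2 h of LPS 77 members were called, and in WT dendritic cells 6 at 4 h.

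In these cells ribosome biogenesis factors rose with the members, 71 of 108 higher and 1 lower (median 0.21), as did 27 of 30 other TOP genes, with 1 lower. Of 39 initiation genes 31 rose and 2 fell. Beside these, 26.3% of all genes were higher and 51.6% called. The counts and fold changes are on TMM-scaled sizes. By library totals the other TOP genes summed to 35944 to 37244 CPM at 2 h and 34402 to 35279 CPM at 0 h. Npm1, a nucleolar chaperone, rose by 0.40 ± 0.05 (edgeR adjusted p = 1.27e-06) and Rrs1, a large-subunit assembly factor, by 0.80 ± 0.07 (adjusted p = 2.3e-08). Myc, a driver of ribosome production, rose by 1.39 ± 0.12 (adjusted p = 2.86e-08).

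Before LPS a few members were called lower with either guide than with gRNA_Ctrl. With gRNA_2 their share lay below that of all genes called in either direction and above that of all genes called lower. With gRNA_1 edgeR called 4 of 82 (4.88%), all lower, against 2.24% of all genes called and 1.19% lower. With gRNA_2 it called 3 (3.66%), all lower, against 4.53% called and 1.94% lower. The gaps between these shares were not tested. The members' median log2 fold change was -0.06 with each guide, beside 0.01 and 0.00 over all genes. Both comparisons use the same 3 gRNA_Ctrl libraries.

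The calls were of like size. With gRNA_1 they included Rpl15 (-0.17, edgeR adjusted p = 0.0152), Rpl7a (-0.15, adjusted p = 0.0345) and Rps26 (-0.14, adjusted p = 0.0372), and with gRNA_2 they included Rps27l (-0.18, adjusted p = 0.0192) and Rpl28 (-0.15, adjusted p = 0.0350). Rps27l had 117, 122 and 122 CPM with gRNA_2, 120, 124 and 123 CPM with gRNA_1, and 136, 142 and 133 CPM with gRNA_Ctrl, so both guides lay below the control, while with gRNA_1 the value of -0.16 was not called (adjusted p = 0.0658). Leaving out 1 library left 0 to 3 calls with either guide.

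Other groups moved beside them. Of 19 p53 target genes, 4 were lower and 0 higher with gRNA_1 (median -0.27), and 6 lower and 1 higher with gRNA_2 (median -0.30), with Eda2r at -1.33 ± 0.23 (edgeR adjusted p = 0.00402) and -1.15 ± 0.23 (adjusted p = 0.00785). Of 30 other TOP genes 4 and 7 were lower, with Eif3f at -0.19 ± 0.04 with each guide (adjusted p = 0.0116 and 0.00761). Beside both lists, 1.19% of all genes were lower with gRNA_1 and 1.94% with gRNA_2. Myc was higher, by 0.71 ± 0.12 with gRNA_1 (adjusted p = 0.0022) and 0.83 ± 0.12 with gRNA_2 (adjusted p = 0.000447). The LPS response of no member differed between a guide and gRNA_Ctrl by edgeR, with 1 under an unadjusted p of 0.05 and 0 by DESeq2 for each guide, against 0.00765% of all genes called for gRNA_1 and 0% for gRNA_2, with median differences of -0.03 and -0.04.

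Most core genes had like levels in RAW264.7 cells and dendritic cells, with a few exceptions. The cell types come from separate experiments, so their levels are given as a description. At 0 h the median log2 ratio of the 77 core genes, RAW264.7 with gRNA_Ctrl over WT dendritic cells of the time course, was -0.11, and over untreated WT cells of the knockout experiment it was 0.23. Of the 77, 6 were below -1 against the time course (Rpl21, Rpl26, Rpl29, Rpl35a, Rps18 and Rps29), 4 of them also against the knockout experiment, and 0 were above 1.

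Rpl29 averaged 39.3 CPM in RAW264.7 and 500.1 CPM in dendritic cells, 12.7-fold lower, and ran from 34.9 to 44.5 CPM over all RAW264.7 libraries and from 284 to 647 CPM over all dendritic cell libraries. Rpl26 averaged 131 CPM and 694 CPM, 5.30-fold lower, with 116 to 152 CPM over all RAW264.7 and 397 to 1001 CPM over all dendritic cell libraries. Rpl35a averaged 202 CPM and 513 CPM, 2.54-fold lower. These are large-subunit proteins, and 28 annotated transcripts are at least 95% identical to Rpl29, 6 to Rpl26 and 14 to Rpl35a. Rps29 of the small subunit, which has no such copy, averaged 524 CPM in RAW264.7 and 1138 CPM in dendritic cells, 2.17-fold lower. Rpl7l1 was higher in RAW264.7, at 193 CPM against 106 CPM, and stood at 17.6 ± 0.676% of Rpl7 counts against 10.4 ± 1.22% (SD, n = 3 and 6).

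**Figure D5:**
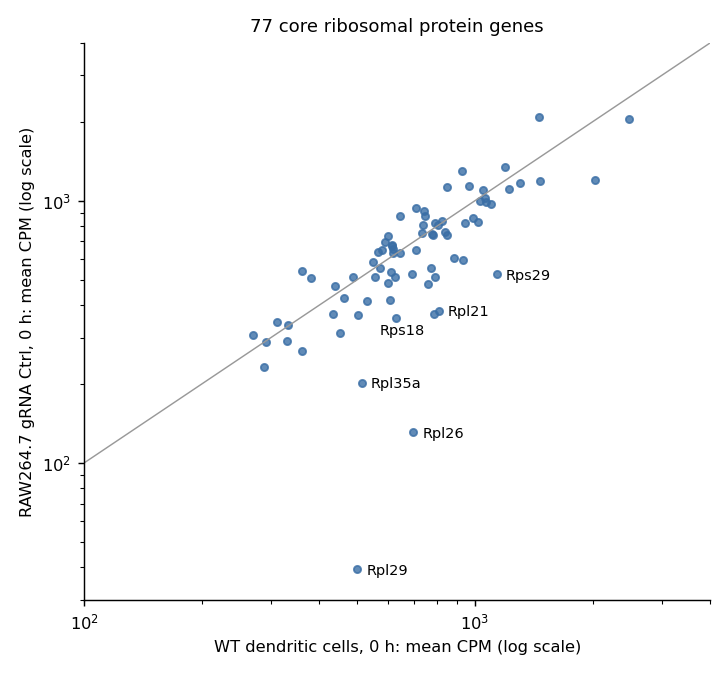
Mean CPM of the 77 core ribosomal protein genes at 0 h in RAW264.7 cells with gRNA_Ctrl (vertical, 3 libraries) and WT dendritic cells of the time course (horizontal, 6 libraries), both on log scales, with the line of equal levels. Rpl29, Rpl26 and Rpl35a lie farthest below the line, at 39.3, 131 and 202 CPM in RAW264.7.

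Rpl37a, a protein of the large subunit (chr1:72711290-72713813, plus strand, mm10), had 2 levels, whose relation to genotype and treatment was not tested. Per 10000 core counts it had 37.4 to 56.9 in 35 libraries and 93.6 to 119 in the other 30, with none between, and both levels occurred in each of the 3 experiments. All 3 Suv39h1KO libraries were at the lower level, against 1 of 3 WT, 2 of 3 IfnarKO and 2 of 3 double mutant libraries. At 0, 2 and 4 h of the time course, 3, 1 and 3 of 3 libraries labelled TrifKO were at the lower level. The MyD88KO counts were 1, 2 and 1 of 3, and the WT counts 5 of 6, 2 of 5 and 4 of 6. In RAW264.7 cells 5 libraries had 235 to 239 CPM and 13 had 509 to 553 CPM. The 5 were replicates 1 and 2 of gRNA_1 and replicates 2 and 3 of gRNA_2 at 0 h, and replicate 1 of gRNA_1 at 2 h, and all 6 gRNA_Ctrl libraries were at the upper level. Its SD of log2 CPM, taken relative to each library's median over the members compared, was 0.64, 0.58 and 0.52 in the 3 experiments. These were the highest of those members, whose median SDs were 0.0967, 0.0907 and 0.0456. Its fold changes were not called in any comparison, with -0.98 ± 0.48 in Suv39h1KO against WT cells (edgeR adjusted p = 1) and -0.69 ± 0.32 with gRNA_1 (adjusted p = 0.374). The annotation holds 2 other transcripts at least 95% identical to it.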

How the data were processed

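Gene counts were deposited by the authors as raw read counts per gene and library. Per the submitters' processing notes STAR, HOMER and DESeq2 were used with build mm10, and per the labels' protocols libraries came from a stranded poly(A) kit. How reads shared between near-identical genes were counted is not given in the sources used here. Counts were tested here with edgeR 4.0.16 in R 4.3.3 (filterByExpr, TMM factors, quasi-likelihood test), 1 fit per experiment with all its groups, called at an adjusted p under 0.05 over all genes tested. DESeq2 1.42.0 was an alternative, as were no filter, TMM factors without the members, only the groups compared, a cohort block, other sets of WT libraries, each library left out and, chosen after seeing the data, library totals. The fits were tested on simulated counts. Members and lists were chosen with earlier results of these data known. Named were up to 6 members per direction and comparison, the paralogs, the P stalk genes with Rpsa, members with other roles, and up to 4 genes per list. Same-cohort libraries deviated together in the knockout experiment (mean correlation 0.451, all 18 pairs above 0.1). Promoter sequences are RefSeq's on GRCm38.p6 and gene positions GENCODE's on mm10. The values of 1 member are not reported here.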

Additional observations from a re-analysis of the deposited data

Results flagged for a closer look

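The WT groups of the time course, with 5 or 6 libraries each, were examined in 81 combinations of group and quantity. In 6 of these a library lay far from the others. Chance gives about 1 in 20, but the combinations share libraries, and 4 of the 6 are 1 library. WT library 5 (cohort 2) at 0 h was such a library for the TMM-scaled share of the members, 6.80%, for Rpl22l1 at 180 CPM and 23.1 per 10000 core counts, and for Rpl24 at 636 CPM. At 2 h WT library 3 (cohort 1) was high for Rpl24, at 595 CPM. At 4 h WT library 41 (cohort 3) was low for Rpl7l1, at 14.5 per 10000 core counts. The difference of -0.68 between the MyD88KO and WT responses of Rps27l at 4 h passed the test of the difference itself (edgeR adjusted p = 0.0442). That call was fragile, as it held in only 4 of the 18 fits that left out 1 library (adjusted p up to 0.176). It was also lost under several of the alternatives below.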

How the results depend on the processing

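Under alternatives that left out no library, counts of members called stayed within 1.5 times of the reported count 141 times, moved 35 times and reversed once. Medians moved by more than the SD between libraries 9 times and stayed within it 168 times. That SD reached 0.33 (log2, IfnarKO against WT), so a median that changed sign can count as having stayed. Named genes kept direction and call 205 times, lost the call 33 times and reversed 5 times. At 4 h in WT cells 6 calls became 16 by DESeq2, 12 with the library set as a term, 17 with the WT libraries of high numbers, 1 with those of low numbers, and 77 by library totals, 76 of them lower. By library totals the counts were 0 for WT at 2 h, 0 for MyD88KO at 4 h, 0 and 1 for libraries labelled TrifKO at 2 h and 4 h, 9 for RAW264.7 at 2 h, 0 for the MyD88KO response at 4 h and 1 for the TrifKO response at 4 h. The medians by library totals were -0.23 and -0.47 for WT at 2 h and 4 h, -0.20 and -0.31 for MyD88KO, -0.082 and -0.13 for libraries labelled TrifKO, 0.16 and 0.34 for the MyD88KO and TrifKO responses at 4 h and 0.048 for RAW264.7. Named genes reversed by library totals at 4 h in WT cells were Rpl24 (-0.24), Rps20 (-0.26), Rplp2 (-0.30), Rpl19 (-0.33) and Rpl27 (-0.39).

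With WT libraries of low numbers only, counts were 1 at 2 h and 0 between 2 h and 4 h, and of high numbers only 2 for the TrifKO response at 4 h. With only the groups compared they were 0 for MyD88KO at 4 h, 5 for libraries labelled TrifKO at 2 h and 0 for gRNA_2. Without a filter on low counts they were 1 for libraries labelled TrifKO at 2 h and 1 for each guide. The MyD88KO response at 4 h had 0 calls without a filter, with TMM factors made without the members, with only the groups compared, with WT libraries of a cohort summed and with WT libraries of low numbers. DESeq2 called 1 and 2 members for Suv39h1 loss in WT and IfnarKO cells, and 9 and 10 for gRNA_1 and gRNA_2. The cause of these differences was not tested.

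With the cohort number as a replicate block, 1 and 3 members were called for Suv39h1 loss in WT and IfnarKO cells, and 11 and 14 for gRNA_1 and gRNA_2. A block of library set and cohort, added after seeing the data, called 7 members at 2 h and 23 at 4 h in WT cells (22 higher, 1 lower). In the time course and RAW264.7 the numbers did not pair every set of libraries (same-number pairs correlated above 0.1 in 9 of 9 for MyD88KO, 9 of 9 for WT libraries of high and 6 of 7 of low numbers, and 5 of 9 labelled TrifKO). Library totals, single WT library sets and counts per 10000 core counts were also chosen after seeing the data.

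On TMM-scaled sizes the members' share was 4.79% for MyD88KO at 0 h, 4.24% for libraries labelled TrifKO at 0 h, 5.59% for WT at 4 h, 5.52% and 4.83% for gRNA_1 at 2 h and 0 h, 5.46% and 4.82% for gRNA_2, and 5.89% and 5.05% for gRNA_Ctrl. With each library left out, counts ranged over 2 to 7 for WT at 2 h, 4 to 32 at 4 h (7 and 32 without 0 h library 5), 0 to 1 for MyD88KO at 4 h and its response, 1 for libraries labelled TrifKO at 2 h, 1 to 2 at 4 h and 0 to 3 for each guide. Leaving out a library moved medians by over 1.5 times or across 0, with ranges of 0.0012 to 0.34 for Suv39h1KO, 0.18 to 0.40 in the IfnarKO background, -0.20 to 0.14 for IfnarKO, 0.0017 to 0.25 and 0.11 to 0.29 for WT at 2 h and 4 h, -0.032 to 0.086 and -0.052 to 0.10 for MyD88KO, 0.064 to 0.23 and -0.084 to 0.19 for libraries labelled TrifKO, and -0.24 to 0.024 and -0.25 to -0.025 for the MyD88KO responses. Depth limits Rps4l, with 38 counts in its lowest dendritic cell library.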
